A study of Rattus norvegicus with 9 samples.

Results

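Neurotrophic ligands and receptors were read in the amygdala of ovariectomised rats that did or did not receive estradiol. The 8 genes were Bdnf and Ntf3 (neurotrophins), Ntrk2 and Ntrk3 (their receptor kinases TrkB and TrkC), Ngfr (the shared receptor p75), Gdnf and Gfra1 (a glial-derived factor and its co-receptor) and Sort1 (sortilin). Every non-control probe that the scanner files name after one of these genes was taken, which gave 21 of the 45598 probes and 8 of the 34912 gene names on the array. Each probe is a 60-base oligonucleotide, and a gene can have several.

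The animals were 9 female SHR, the spontaneously hypertensive rat, an inbred strain with high blood pressure. All of them lost both ovaries at 4 weeks of age and, after 1 week, carried a minipump under the skin for 4 weeks, so that tissue was taken at 9 weeks. The pumps of 4 rats held the vehicle PEG alone (OV), and those of 5 rats held estradiol in PEG and released 2 µg a day (OV+E2). RNA of the right and left amygdala of each rat was labelled and put on 1 array of its own. No rat with ovaries and no other strain was analysed here, so the comparison is between estradiol and vehicle after ovary loss. As each array is a different rat, the spread within a group holds differences between animals together with those of dissection, labelling and array. With 1 array per rat these cannot be told apart.

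BDNF and neurotrophin-3 are released by neurons and act mainly through TrkB and TrkC, kinases of the cell surface that signal through MAP kinase, PI3 kinase and phospholipase C gamma. Ntrk2 and Ntrk3 also give shorter receptors that lack the kinase, because some of their transcripts end in front of the kinase exons; short TrkB is abundant in astrocytes. Unprocessed proneurotrophins bind p75 together with sortilin, and GDNF binds GFRα1, which then engages the kinase RET. In the amygdala BDNF and TrkB are known for their part in fear learning and its extinction.

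Levels below are the log2 signal of a probe minus the 75th percentile of log2 signal on the same array, and differences are OV+E2 minus OV on that scale. Since probes bind with different strength, a level of one probe is not compared with a level of another. One array, OV replicate 3, stood apart: its 75th percentile of signal was 129.7 against 556.8 to 737.6 on the other 8 arrays, and its mean correlation with the others was 0.947 against 0.980 to 0.983. Differences are therefore given with all 9 arrays and again without that one. Of the markers of the dissected region, Prkcd, Crh, Penk and Cartpt, genes of central and medial amygdala neurons, were measured in both groups, and no probe was matched to Tac2. Prkcd varied widely between OV+E2 rats, with an SD of 1.16 against 0.13 in OV. Its difference was +0.85 (SE 0.52), or +0.91 (SE 0.60) without OV replicate 3. Choroid plexus markers varied between dissections, with a summed level, in multiples of the 75th percentile, of 11.4 to 748.3 in OV (342.8 at most without OV replicate 3) and 253.6 to 474.2 in OV+E2. Markers of hypothalamus and pituitary summed to 33.0 to 64.9 in OV (57.2 at most without OV replicate 3) and 18.1 to 35.1 in OV+E2, with all 3 tested genes lower at an unadjusted p under 0.05 in limma (Avp −1.08, Oxt −0.82 and Pomc −0.49 on the log2 scale); none passed adjustment. Microglia markers summed to 20.8 to 36.8 in OV (28.3 at most without OV replicate 3) and 15.7 to 19.2 in OV+E2, without overlap. The part of these tissues and cells in the values below was not tested.

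The probes on which the comparisons turn are shown by their last 30 bases as deposited in the scanner files, with AATAAA, the letters of the common polyadenylation signal, in capitals. The pair for Ntrk2 and the pair for Ntrk3 are shown because the groups separated in 1 probe of each and overlapped in the other. The Gfra1 pair is nearly the same sequence, and the Bdnf probe is the only one for its gene.
Ntrk2 A_44_P668359 (transcript variant 2): aatgcatccttccctctctttttaaagaga
Ntrk2 A_42_P538400 (transcript variant 1): aaactctgcatcatggacacagtttccgat
Ntrk3 A_44_P1101111 (predicted variant X2): tgttcagtgtatagtttcttAATAAAcact
Ntrk3 A_43_P18426: ttgaggatgtcaatgtttatttcagcaaag
Gfra1 A_44_P1160578: cattgAATAAAcatattcgatgtgccgaaa
Gfra1 A_43_P11634: tgAATAAAcatattcgatgtgccgaaagcg
Bdnf A_44_P437896: tctgagagacgttagtcaaacaAATAAAag
AATAAA was found in 4 of the 21 probes and in 9.04% of all 45598 probes, and its reverse complement TTATTT in 2 of the 21 and in 3.29% of all. A match of these letters is a description of the probe and does not show where a transcript ends. Exons and untranslated regions were not annotated here.

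In the comparison as a whole 19 of the 21 probes were tested, and the remaining 2, Gdnf A_64_P004162 and Gfra1 A_44_P1102023, were not well above background on any array. With Benjamini-Hochberg adjustment in limma none of the 19 was called at 0.05, and neither was any of the 30220 probes tested over the array (0.0%, or 0.00331% without OV replicate 3). Before adjustment 2 of the 19 had a p under 0.05, 1 higher and 1 lower in OV+E2, beside 10.4% of all tested probes. Without OV replicate 3 it was 3 of 19, beside 14.1%. Both shares lie near the background. Other processing moved both counts together: slide as a block gave 1 of 19 beside 7.63%, the authors' deposited values 5 of 19 beside 18.8%, and limma's array weights 7 of 19 beside 31.5%. Most differences were above 0, 15 of 19 beside 50.1% of all probes, with a median of +0.11 beside 0.00 for all probes. Without OV replicate 3 the count was 16, beside 52.4%, and the median +0.06 beside +0.01. Several of the 19 probes belong to the same gene, so their directions are not independent.

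**Figure D1:**
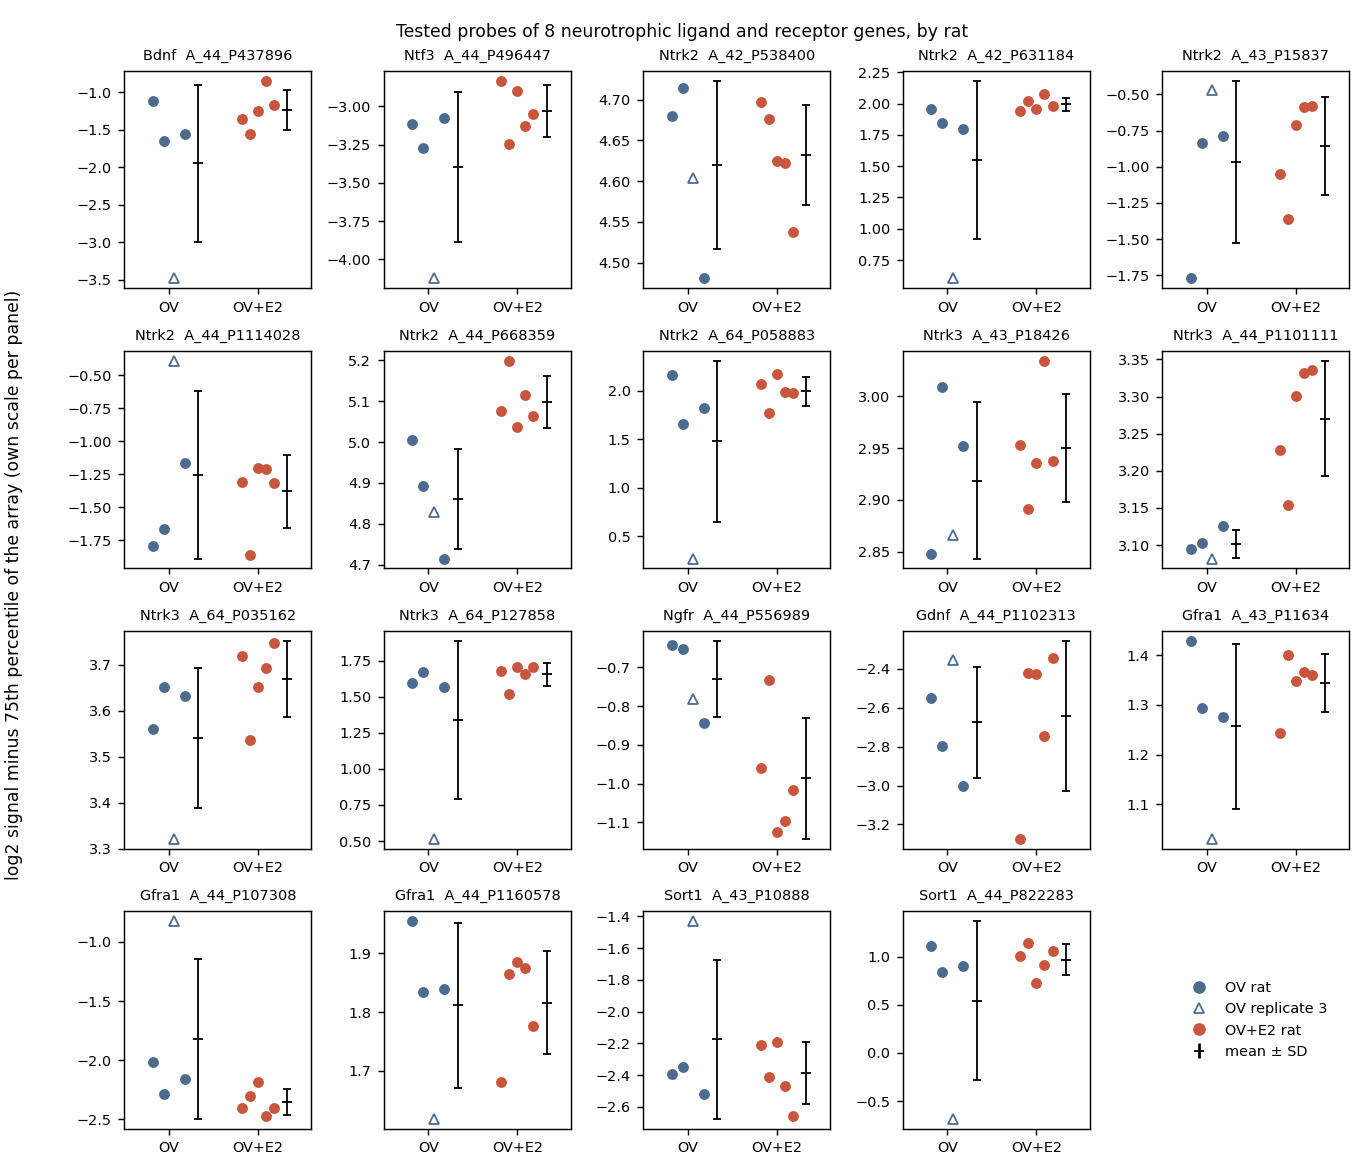
Level of each of the 19 tested probes in each rat, as log2 signal minus the 75th percentile of the array, with 1 panel and 1 scale per probe; filled points are rats, the open triangle is OV replicate 3, and the bars give the mean and SD of each group. The groups separate for Ntrk2 A_44_P668359 and Ntrk3 A_44_P1101111 alone, and OV replicate 3 lies far from the other OV rats in panels such as Bdnf, Ntf3 and Sort1.

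Among the ligands, Bdnf was read by 1 probe (rn4 chr3_random:979381-979440, a piece of chromosome 3 without a fixed place in that build). Its level was −1.11, −1.64, −3.48 and −1.55 in OV replicates 1, 2, 3 and 5, and −1.36, −1.56, −1.25, −0.84 and −1.16 in OV+E2 replicates 1 to 5. OV replicate 3 read lowest by a wide margin in these scanner values, and the probe was not well above background there. The other 8 rats overlapped between the groups. The difference was +0.71 (SE 0.43, n = 4 and 5; adjusted p = 0.517 in limma) with all arrays and +0.20 (SE 0.18, n = 3 and 5; adjusted p = 0.656) without OV replicate 3. Bdnf thus did not pass the test, and its difference was mostly that of 1 array. The slides gave +0.62 (slide 1, which holds OV replicate 3) and +0.46 (slide 2, with a single OV rat). Without OV replicate 3 slide 1 gave −0.08, so the direction turned there. In the authors' deposited values, in log2, OV replicate 3 was not low for Bdnf. It was at 7.83, beside 8.25, 7.71 and 7.81 in the other OV rats. The Bdnf difference in those values was +0.23 (SE 0.16) with all arrays.

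Ntf3, the gene of neurotrophin-3, had 1 probe (rn4 chr4:162436573-162436632). Its level was −3.12, −3.27, −4.12 and −3.08 in the OV rats and −2.83, −3.25, −2.90, −3.13 and −3.05 in the OV+E2 rats. OV replicate 3 was again lowest and not well above background, and the other 8 rats overlapped. The difference was +0.37 (SE 0.22; adjusted p = 0.516 in limma), or +0.12 (SE 0.11; adjusted p = 0.650) without OV replicate 3. Its sign turned after another background correction, normexp, to −0.15, where the median of all probes stood at −0.11. In the authors' deposited values, in log2, OV replicate 3 was at 6.16, beside 6.25, 6.09 and 6.29 in the other OV rats. The Ntf3 difference in those values was +0.13 (SE 0.09).

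Gdnf, which encodes a survival factor for dopaminergic and motor neurons, had a probe for predicted transcripts (A_44_P1102313, rn4 chr2:57426655-57426714). It read −2.55, −2.80, −2.35 and −3.00 in the OV rats and −3.27, −2.42, −2.43, −2.74 and −2.34 in the OV+E2 rats. The groups overlapped, and OV+E2 replicate 1 was the lowest of all. The difference was +0.03 (SE 0.22; adjusted p = 0.941 in limma), or +0.14 (SE 0.22) without OV replicate 3, and the slides pointed opposite ways, −0.28 on slide 1 and +0.50 on slide 2. The probe for the curated transcript NM_019139 was not well above background in any rat.

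Among the receptors, Ntrk2 had 6 probes along its minus-strand locus on chromosome 17. The files name 2 of them for transcript variant 1 (NM_012731), 2 for variant 2 (NM_001163168), 1 for a predicted variant (XM_006253507) and 1 for an older record (M55293); they do not say which receptor protein each variant encodes. The variant 2 probe A_44_P668359 (rn4 chr17:11676759-11676818), printed on 10 spots of each array, read 5.01, 4.89, 4.83 and 4.71 in the OV rats. It read 5.08, 5.20, 5.04, 5.11 and 5.06 in the OV+E2 rats. Every OV+E2 rat lay above every OV rat, although OV replicate 1 came within a small distance of the lowest of them.

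The difference of this probe was +0.24 (SE 0.09, n = 4 and 5), a 1.18-fold higher mean signal, with an adjusted p of 0.417 in limma (unadjusted p = 0.0266). It was +0.23 (SE 0.08, adjusted p = 0.264) without OV replicate 3, +0.23 within slide 1 and +0.36 within slide 2. The technical scatter between its 10 spots on one array had a median SD of 0.06. Groups that did not overlap were found for 2 of the 19 probes, this one and a Ntrk3 probe, beside 6.9% of all probes (10.4% without OV replicate 3). With limma's array weights, which gave OV replicate 3 a weight of 0.0489, the adjusted p was 0.0442, where 11.6% of all probes passed. Weights fitted without OV replicate 3 gave an adjusted p of 0.123.

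The variant 1 probe A_42_P538400 (rn4 chr17:11495183-11495242), also on 10 spots, lies 181.6 kb further along the direction of transcription. It read 4.68, 4.71, 4.60 and 4.48 in the OV rats and 4.70, 4.68, 4.63, 4.62 and 4.54 in the OV+E2 rats. The groups overlapped, and OV replicate 3 was not unusual for this probe. The difference was +0.01 (SE 0.09; adjusted p = 0.948 in limma), with a sign that depended on the rats included.

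Set against each other in the same array, the variant 2 probe over the variant 1 probe gave a log2 ratio of 0.33, 0.18, 0.22 and 0.23 in the OV rats and 0.38, 0.52, 0.41, 0.49 and 0.53 in the OV+E2 rats. All OV+E2 ratios were above all OV ratios, and OV replicate 3 lay inside the OV range. The mean ratio was 0.24 ± 0.06 (SD, n = 4) in OV and 0.47 ± 0.07 (SD, n = 5) in OV+E2, a difference of 0.23 with and 0.22 without OV replicate 3. The ratio compares 2 probes, was not tested, and does not tell which of them would differ. The pair was chosen because the groups already separated in 1 of its probes. Of the 15 pairs of Ntrk2 probes this 1 did not overlap between the groups, beside 8.26% of 8867 pairs of probes of 1 gene over the array, or 12.1% without OV replicate 3.

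**Figure D2:**
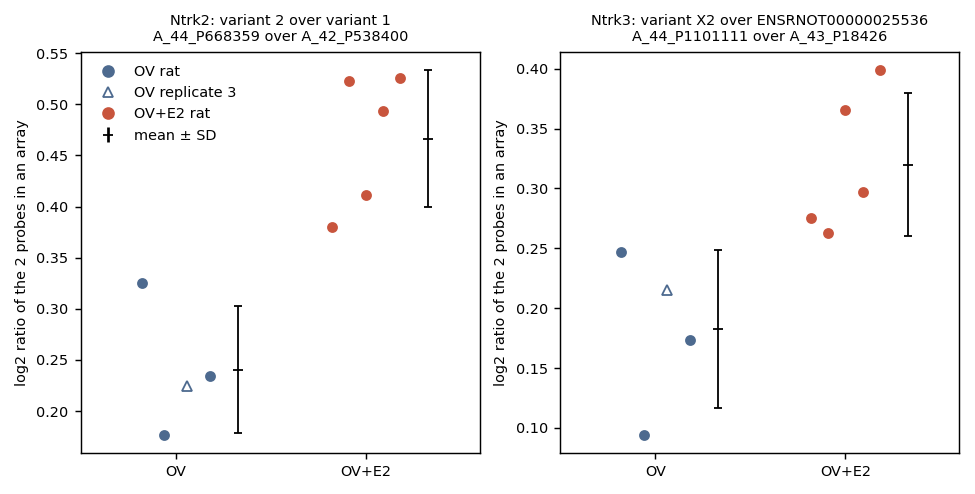
Log2 ratio of a pair of probes of 1 gene within each array, for Ntrk2 (left) and Ntrk3 (right), with each rat as a point, OV replicate 3 as an open triangle and bars for the mean and SD of each group. In Ntrk2 the OV rats lie between 0.18 and 0.33 and the OV+E2 rats between 0.38 and 0.53; in Ntrk3 they lie between 0.09 and 0.25 and between 0.26 and 0.40.

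The second variant 2 probe, A_42_P631184, sits 3.29 kb from A_44_P668359. It read 1.95, 1.84, 0.60 and 1.80 in the OV rats and 1.94, 2.02, 1.95, 2.08 and 1.98 in the OV+E2 rats. Apart from OV replicate 3, which was far below, the rats fell within a narrow band whose upper part was mostly OV+E2, and the groups overlapped. The difference was +0.44 (SE 0.26; adjusted p = 0.514 in limma), and +0.13 (SE 0.06; adjusted p = 0.417) without OV replicate 3.

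The second variant 1 probe, A_64_P058883, lies 0.912 kb from A_42_P538400 and gave +0.52 (SE 0.34), or +0.11 (SE 0.13) without OV replicate 3. The log2 ratio of A_64_P058883 (variant 1) over A_42_P631184 (variant 2) overlapped between the groups. Its difference was +0.07, or −0.02 without OV replicate 3, so these probes of the same variants did not repeat the separation. The M55293 probe gave +0.11 (SE 0.27) and then +0.27 (SE 0.27), and the predicted-variant probe −0.13 (SE 0.28) and then +0.16 (SE 0.19). The groups overlapped in all 3 of these probes. Of the 6 Ntrk2 probes, 5 were higher in OV+E2 with all arrays, beside 50.1% of all probes, and all 6 without OV replicate 3, beside 52.4%. Of these, A_44_P668359 alone had an unadjusted p under 0.05 in limma, beside 10.4% of all probes, or 14.1% without OV replicate 3.

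Ntrk2 is expressed by neurons and astrocytes, so their markers were set beside it. Astrocyte markers (Aqp4, Gfap, Aldh1l1, Slc1a3, Gja1) were higher in OV+E2 for 2 of 5 genes, or 1 of 5 without OV replicate 3. Their summed level was 101.0 to 118.3 in OV (110.9 at least without OV replicate 3) and 101.5 to 114.3 in OV+E2. Without that array 2 of the 5 were lower at an unadjusted p under 0.05 in limma, beside 8.26% of all probes. These were Aqp4 at −0.19 and Gfap at −0.31, and neither passed adjustment. Markers of glutamatergic neurons summed to 18.9 to 21.0 in OV (20.3 at most without OV replicate 3) and 22.1 to 23.4 in OV+E2, without overlap. In that list 3 of 5 genes were higher, and Slc17a7, which encodes the vesicular glutamate transporter VGLUT1, had the smallest p, at +0.30 (SE 0.09; unadjusted p = 0.0102 in limma). The 2 tested probes of Slc17a7 ranged from −0.11 to +0.30, and the value given is that of the brightest. The median difference of the glutamatergic list was +0.30, or +0.01 without OV replicate 3. General neuron markers summed to 104.9 to 141.9 in OV (117.5 at least without OV replicate 3) and 134.0 to 145.9 in OV+E2. Those of GABA neurons summed to 34.3 to 41.4 in OV (35.5 at least without OV replicate 3) and 40.0 to 44.4 in OV+E2. Both lists overlapped between the groups. The part of these cell markers in the Ntrk2 and Bdnf values was not tested. In bulk tissue fewer cells of a type and less RNA per cell cannot be told apart.

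Ntrk3, the receptor for neurotrophin-3, had 4 probes on the minus strand of chromosome 1. A_44_P1101111 (rn4 chr1:134026091-134026150), named for the predicted variant X2 (XM_008759513), read 3.09, 3.10, 3.08 and 3.13 in the OV rats. It read 3.23, 3.15, 3.30, 3.33 and 3.34 in the OV+E2 rats. The OV rats were almost identical, OV replicate 3 included, and every OV+E2 rat was above them, OV+E2 replicate 2 by the least.

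The difference was +0.17 (SE 0.08, n = 4 and 5; adjusted p = 0.498 in limma), a 1.12-fold higher mean signal. Without OV replicate 3 it was +0.16 (SE 0.06; adjusted p = 0.312), and it was +0.10 within slide 1 and +0.20 within slide 2. With limma's array weights the adjusted p was 0.0444, where 11.6% of all probes passed, and 0.139 when weights were fitted without OV replicate 3. The other side of the pair shown above, A_43_P18426, lies 1.949 kb upstream of it and read 2.85, 3.01, 2.87 and 2.95 in OV and 2.95, 2.89, 2.94, 3.03 and 2.94 in OV+E2. Here the groups overlapped fully, with a difference of +0.03 (SE 0.08; adjusted p = 0.844) that turned to −0.03 with array weights.

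The log2 ratio of A_44_P1101111 over A_43_P18426 was 0.25, 0.09, 0.22 and 0.17 in the OV rats and 0.28, 0.26, 0.37, 0.30 and 0.40 in the OV+E2 rats. The groups did not overlap, but OV replicate 1 was close to OV+E2 replicate 2. The difference of the ratio was 0.14, or 0.15 without OV replicate 3. It was the 1 of 6 Ntrk3 pairs without overlap, beside the same 8.26% over the array, or 12.1% without OV replicate 3. This pair too was chosen because the groups already separated in 1 of its probes, and the ratio was not tested.

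The brightest Ntrk3 probe, A_64_P035162, is shared by transcripts NM_001270656, NM_001270655 and NM_019248 and lies 100.6 kb beyond A_44_P1101111. It read 3.56, 3.65, 3.32 and 3.63 in the OV rats and 3.72, 3.54, 3.65, 3.69 and 3.75 in the OV+E2 rats. OV replicate 3 was lowest and the rest overlapped, so that a difference of +0.13 (SE 0.10; adjusted p = 0.545 in limma) became +0.06 (SE 0.07; adjusted p = 0.762) without it. The remaining probe, A_64_P127858, went from +0.32 (SE 0.23) to +0.04 (SE 0.07). All 4 Ntrk3 probes were higher in OV+E2 with all arrays unweighted, beside 50.1% of all probes. As probes of 1 gene they are not independent. The groups did not overlap in 1 of them, beside 6.9% of all probes, or 10.4% without OV replicate 3.

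Ngfr, which encodes p75, a receptor that binds every neurotrophin and is abundant on cholinergic neurons of the basal forebrain, was lower in OV+E2. Its probe (A_44_P556989, rn4 chr10:84263082-84263141) read −0.64, −0.65, −0.78 and −0.84 in the OV rats and −0.96, −0.73, −1.12, −1.10 and −1.02 in the OV+E2 rats. OV+E2 replicate 2 lay among the OV rats, and the other 4 lay below all of them. The difference was −0.26 (SE 0.11, n = 4 and 5), a 0.837-fold level, with an adjusted p of 0.456 in limma (unadjusted p = 0.0394).

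Without OV replicate 3 the Ngfr difference was −0.27 (SE 0.10; adjusted p = 0.292), and it was −0.15 within slide 1 and −0.24 within slide 2. With slide as a block it was −0.19, with an unadjusted p of 0.0839. With arrays scaled to their medians it was −0.15, with an unadjusted p of 0.375 in limma, where the median of all probes stood at +0.11. With limma's array weights the adjusted p was 0.0258, where 11.6% of all probes passed, and 0.111 when weights were fitted without OV replicate 3. The sign of the difference was the same in all 21 other fits of the data.

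Markers of cholinergic neurons were set beside Ngfr. Of Chat, Slc18a3, Slc5a7, Lhx8 and Isl1, 4 of 5 were lower in OV+E2, and 5 of 5 without OV replicate 3. Their summed level was 4.51 to 6.17 in OV (4.84 at least without OV replicate 3) and 4.36 to 5.18 in OV+E2. Slc18a3, the vesicular acetylcholine transporter gene, was lower by −0.24 (SE 0.09; unadjusted p = 0.0325 in limma) with no overlap between the groups. Markers of meninges and fibroblasts, cells that can carry p75, summed to 18.2 to 23.9 in OV and 14.9 to 17.7 in OV+E2, without overlap. In that list Col1a1, a collagen gene, was at −0.62 (SE 0.11), and 3 of 5 genes were lower with all arrays and 5 of 5 without OV replicate 3. Schwann cell markers summed to 9.26 to 11.4 in OV (9.44 at most without OV replicate 3) and 8.38 to 10.6 in OV+E2. The part of these cells in the Ngfr value was not tested.

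Gfra1, the co-receptor that holds GDNF, had 3 tested probes on the minus strand of chromosome 1, a pair of which overlap by 57 of 60 bases. A_44_P1160578 (rn4 chr1:264614329-264614388), the brightest, read 1.95, 1.83, 1.62 and 1.84 in the OV rats and 1.68, 1.86, 1.89, 1.87 and 1.78 in the OV+E2 rats. The groups overlapped, and the difference was 0.00 (SE 0.10; adjusted p = 0.982 in limma), or −0.06 (SE 0.07) without OV replicate 3. Its shifted copy A_43_P11634 gave +0.09 (SE 0.10), or +0.01 (SE 0.07) without OV replicate 3.

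The last Gfra1 probe, A_44_P107308, matches the genome over a span of 802 bases, more than its own 60. It read −2.01, −2.29, −0.82 and −2.16 in the OV rats and −2.41, −2.30, −2.18, −2.47 and −2.40 in the OV+E2 rats. OV replicate 3 was far above the rest, and the other 8 rats overlapped. The difference was −0.53 (SE 0.27; adjusted p = 0.508 in limma), and −0.20 (SE 0.09; adjusted p = 0.380) without OV replicate 3.

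Sort1, whose product sortilin sorts BDNF and pairs with p75 at the cell surface, had 2 probes 12.44 kb apart on chromosome 2. A_44_P822283 read 1.12, 0.84, −0.69 and 0.91 in the OV rats and 1.01, 1.15, 0.73, 0.92 and 1.06 in the OV+E2 rats. OV replicate 3 was far below every other rat, and the others overlapped fully. The difference went from +0.43 (SE 0.33; adjusted p = 0.547 in limma) to +0.02 (SE 0.11; adjusted p = 0.966) once that array was left out. In the authors' deposited values, in log2, that array was at 10.21, beside 10.48, 10.20 and 10.27 in the other OV rats. The difference in those values was +0.04 (SE 0.10) with all arrays.

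The second Sort1 probe, A_43_P10888, read −2.39, −2.35, −1.43 and −2.52 in OV and −2.21, −2.41, −2.19, −2.47 and −2.66 in OV+E2. Here OV replicate 3 was the highest rat, so that array lay on opposite sides for probes of the same gene. The difference was −0.21 (SE 0.22), and +0.03 (SE 0.12) without OV replicate 3.

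**Figure D3:**
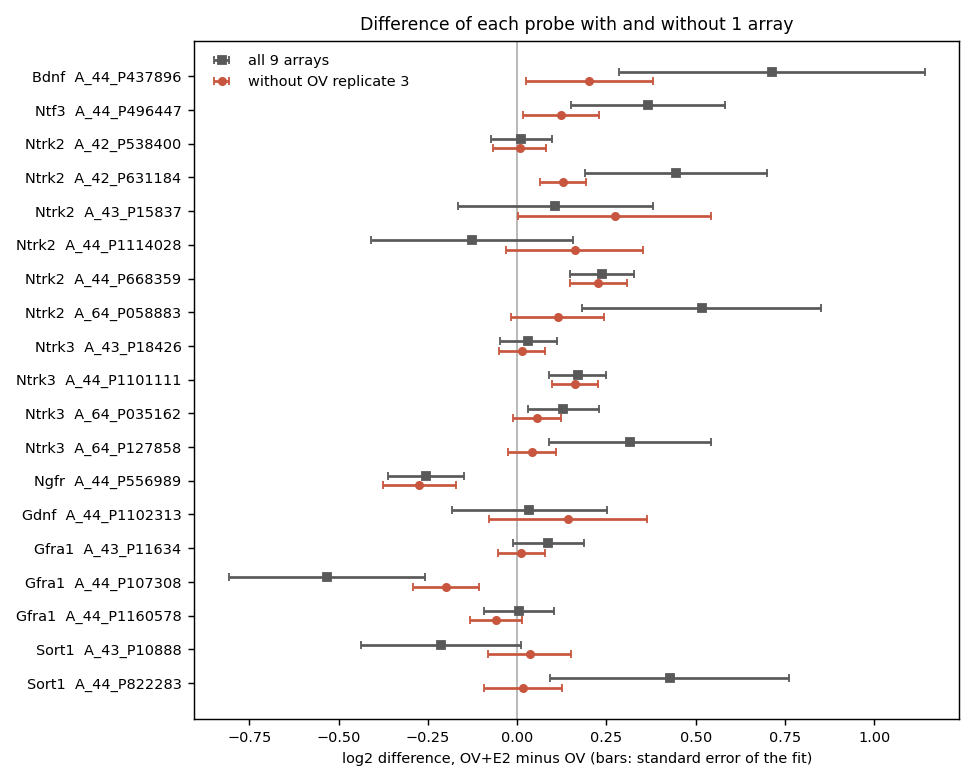
Difference between OV+E2 and OV for each of the 19 tested probes, in log2 units, with bars for the standard error of the fit; grey squares use all 9 arrays and red circles leave out OV replicate 3. The values for Ntrk2 A_44_P668359, Ntrk3 A_44_P1101111 and Ngfr hardly moved, whereas those for Bdnf went from +0.71 to +0.20 and for Sort1 A_44_P822283 from +0.43 to +0.02.

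Other genes of the same signalling were taken from 6 lists of 81 genes, of which 75 were tested with 1 probe each. None was called after adjustment in limma (0.0% of all probes were), with a lowest adjusted p of 0.282. With an unadjusted p under 0.05 were 2 higher and 5 lower with all arrays, beside 3.21% and 7.17% of all probes, and 7 higher and 3 lower without OV replicate 3, beside 5.86% and 8.26%. The median difference over the 75 genes was +0.04, or +0.05 without OV replicate 3, beside 0.00 and +0.01 for all probes.

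Of 12 tested ligands and receptors outside the 8 genes, 6 were higher and 6 lower. The 2 genes of this list with the smallest p among the higher ones were Cntfr, a ciliary neurotrophic factor receptor, at +0.19 (SE 0.14), and Ret, the GDNF receptor kinase, at +0.70 (SE 0.52), which was +0.04 without OV replicate 3.

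The sortilin family and the enzymes that cut proneurotrophins had 7 higher and 5 lower of 12 tested. Mmp3, a matrix protease able to cleave proneurotrophins, had the smallest p of all 75 genes, at −0.50 (SE 0.14; unadjusted p = 0.00512, adjusted p = 0.282) with groups that did not overlap. Plg, the gene of plasminogen, which also cleaves proBDNF once activated, was at −0.44 (SE 0.15; unadjusted p = 0.0184). Pcsk1, a prohormone convertase gene, was at +0.26 (SE 0.14), and Cpe, whose product sorts proBDNF, at +0.63 (SE 0.37), which was +0.16 without OV replicate 3. Furin, another convertase, was at −0.06 with all arrays and +0.20 (SE 0.08) without that one.

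Among adaptors and kinases downstream of Trk receptors 10 of 18 were higher. Mapk3, the gene of the MAP kinase ERK1, was lower by −0.74 (SE 0.27; unadjusted p = 0.0249 in limma), with no overlap, and by −0.44 (SE 0.17) without OV replicate 3. The adaptor gene Frs2 was at +0.30 (SE 0.14; unadjusted p = 0.0507). The adaptor gene Shc3 was at −0.40 (SE 0.26), or −0.09 without OV replicate 3.

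Of 12 tested partners of p75, 5 were higher and 7 lower. Lingo1, whose product joins p75 and the Nogo receptor in the complex that limits axon growth, was at +0.27 (SE 0.12; unadjusted p = 0.0429 in limma) and at +0.29 (SE 0.11) without OV replicate 3. Bex3, which encodes a protein that binds the death domain of p75, was at +0.23 (SE 0.12). The adaptor kinase gene Ripk2 was at −0.33 (SE 0.30) and Arhgdia, whose product p75 binds, at −0.13 (SE 0.13), which was 0.00 without OV replicate 3.

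Of 11 tested regulators of Bdnf transcription 8 were higher. Creb1, the cAMP response factor that binds Bdnf promoters, was at +0.16 (SE 0.07; unadjusted p = 0.0612 in limma) with no overlap between the groups, and at +0.17 (SE 0.05; unadjusted p = 0.0153) without OV replicate 3. Mef2c, an activity-regulated factor, was at +0.69 (SE 0.37), or +0.23 (SE 0.09) without that array. On the lower side were Npas4, an immediate early gene, at −0.54 (SE 0.59), and the CREB coactivator gene Crtc1 at −0.09 (SE 0.15).

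Genes that BDNF induces in neurons gave 6 of 10 higher. Spry2, a feedback inhibitor of receptor kinases, was at +0.36 (SE 0.14; unadjusted p = 0.0274 in limma), and +0.23 (SE 0.09) without OV replicate 3. Its relative Spry4 was at +0.19 (SE 0.13). The immediate early genes Nr4a1 and Arc were at −0.20 (SE 0.34) and −0.13 (SE 0.31), and Vgf, a neuropeptide precursor gene, at +0.01 (SE 0.15).

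**Figure D4:**
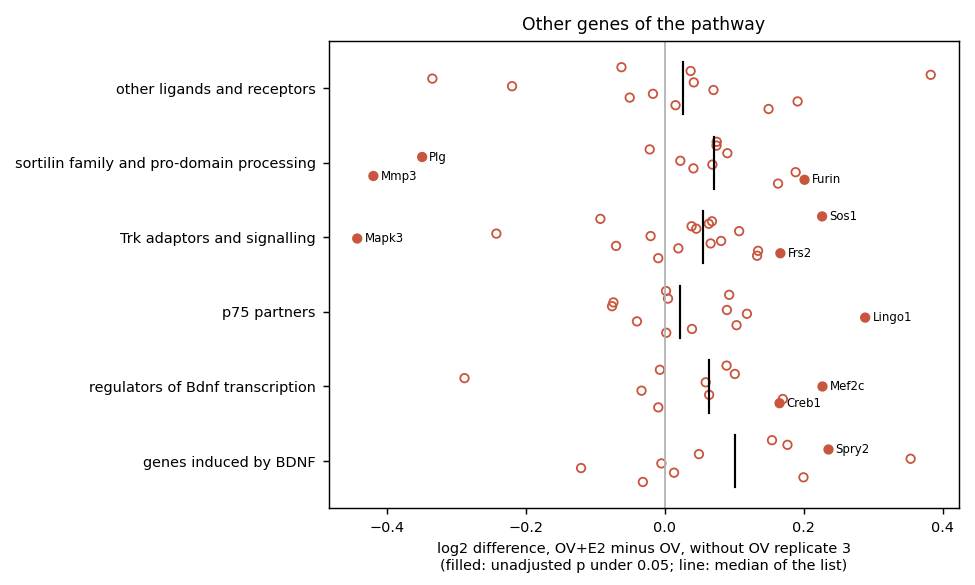
Difference between OV+E2 and OV without OV replicate 3, in log2 units, for the 75 tested genes of 6 lists around neurotrophin signalling; each circle is a gene, filled and named where the unadjusted p is under 0.05, and the black line is the median of the list. The medians lie between +0.02 and +0.10, and 7 named genes lie to the right of zero and 3 to the left.

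The named gene with the most similar course over rats was sought among 14974 genes by Pearson correlation over the 8 arrays other than OV replicate 3. As these rats share slides and treatment, and the best of so many genes is always high, the values are descriptions. Bdnf ran closest with Dlgap2, a postsynaptic scaffold gene (r = 0.966, and 0.994 over 9 arrays), and Ntf3 with Rars2 (r = 0.966, and 0.979). Ntrk2 ran closest with Glyr1 (r = 0.985, and 0.877 over 9) and Ngfr with Slc16a1, a monocarboxylate transporter gene (r = 0.987, and 0.440). For Gdnf it was Ncstn (r = 0.948, and 0.627 over 9), for Gfra1 Scgb1a1 (r = 0.955, and −0.138) and for Sort1 Letm2 (r = 0.965, and −0.793). The last 2 pairings turned to negative values once OV replicate 3 was included.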

How the data were processed

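RNA (200 ng per rat) was read on 1-colour Cy3 rat arrays from Agilent, 4 OV and 5 OV+E2, on 2 slides: slide 1 held 3 OV and 2 OV+E2 arrays, slide 2 held 1 and 3. The deposited scanner files give for each spot a processed signal, an intensity from which Feature Extraction had subtracted background, per the file headers (version 10.7.3.1, protocol GE1_107_Sep09, build rn4); the submitters' processing notes name version 9.1. The authors' deposited value table holds 30469 probes as linear intensity, and its scaling is not stated in the labels or headers. For OV replicate 3 its values differ from the scanner file by more than a scaling. Bdnf, lowest in that array in the scanner file, was at 7.83 there in log2, within the 7.71 to 8.25 of the other OV rats. The origin of this difference is not known.

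Control and outlier spots were left out and spots of a probe averaged. Log2 of the deposited intensity minus the 75th percentile of its array was fitted by group with limma 3.58.1 in R 4.3.3 (with version 1.17.8 of data.table) over 30220 probes that Feature Extraction marked above background (its well-above flag) on 4 or more arrays, with Benjamini-Hochberg adjustment. Unadjusted p-values come from the same fit. An error marked SE is that of the fitted difference. Related genes were matched by RefSeq accession, symbol or synonym (14948 of 45598 probes were not matched) and read by their brightest tested probe; of each list the up to 2 genes of smallest p in each direction were named, and Furin, Sos1, Vgf, Homer1 and single marker genes were named after their values were seen. Some of these genes are not reported here. Members and lists were chosen with earlier results of these data known. The fit was tested on simulated data for this comparison (30180 probes): 22% of 1.5-fold, 58% of 2-fold, 80% of 3-fold and 94% of 4-fold changes were called, with 10 unchanged probes. Errors there were independent normal draws for each probe and array, with no dim array and no slide effect. These percentages hold for that setting and are not the power of the real comparison. Alternatives were quantile and median scaling, normexp (offset 50), other filters, slide or replicate number as a block, array weights, the authors' table, each array left out, single slides and the mean over probes of a gene; those that combine a setting with leaving out OV replicate 3 were chosen after seeing the data. Replicate numbers were not taken as pairs. The number of arrays limits the precision.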

Additional observations from a re-analysis of the deposited data

Results flagged for a closer look

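Of 38 sets of values (19 tested probes in each group), 6 held a rat far from the others of its group by Dixon's test, which flags about 1 in 20 sets by chance. In 4 of them the rat was OV replicate 3. It was lowest for Ntrk2 A_42_P631184 at 0.60, where the next OV rat was at 1.80, for Ntrk3 A_64_P127858 at 0.52, with the next at 1.57, and for Sort1 A_44_P822283 at −0.69, with the next at 0.84. It was highest for the other Sort1 probe, A_43_P10888, at −1.43, with the next at −2.35. OV+E2 replicate 2 was the lowest of its group for Ntrk2 A_44_P1114028 at −1.86, with the next at −1.32, and for Ntrk3 A_64_P127858 at 1.52, with the next at 1.66. That rat was also the OV+E2 rat nearest to the OV rats for Ngfr and for Ntrk3 A_44_P1101111.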

How the results depend on the processing

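No probe over the array passed adjustment in limma with all arrays (0 of 30220; 3137 had an unadjusted p under 0.05). That count was 9 with no filter on dim probes, 3506 with array weights, 69 in the authors' table and 0 to 1 with each array left out, with 1 probe passing without OV replicate 1 and 1 without OV replicate 3. Without OV replicate 3 it was 1 with slide as a block, 1 in the authors' table and 16 with array weights. The number of the 19 neurotrophin probes with an unadjusted p under 0.05 was 2, and became 1 with quantile scaling, 0 with no filter, 1 with slide as a block, 7 with array weights, 5 in the authors' table, 5 with array weights without OV replicate 3, and 0 to 3 with each array left out. It was 1 without OV replicate 5, without OV+E2 replicates 1, 3 or 5, and 0 without OV+E2 replicate 4. The cause of these shifts was not tested.

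Ntrk2 A_44_P668359 had an unadjusted p under 0.05 in 17 of 22 fits, Ngfr in 11 and Ntrk3 A_44_P1101111 in 10. With each array left out they ranged from 0.19 to 0.29, from −0.32 to −0.22 and from 0.15 to 0.20. Of the alternatives run, array weights with all arrays brought these 3 of the 19 past adjustment, where 11.6% of all probes passed. No other alternative did. With the replicate number as a block, 0 probes over the array and 0 of the 19 passed (1966 over the array at an unadjusted p under 0.05), and Gfra1 A_44_P1160578 was at −0.0098. Deviations of rats of the same number correlated at 0.169, −0.0763, −0.0108 and 0.105 for numbers 1, 2, 3 and 5. Rats of different numbers gave −0.290 to 0.122, so number 1 lay above that range and the rest within it.

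The sign of 7 of the 19 probes held in the 21 other fits, in the means over probes and within the slides. Within slide 1 without OV replicate 3, a comparison chosen after seeing the data, 9 turned: Bdnf was −0.080, Ntrk2 A_42_P538400 −0.011, Ntrk2 A_44_P1114028 0.14, Ntrk3 A_43_P18426 −0.0057, Ntrk3 A_64_P127858 −0.035, Gdnf A_44_P1102313 −0.17, Gfra1 A_43_P11634 −0.039, Gfra1 A_44_P1160578 −0.12 and Sort1 A_43_P10888 0.064. Gfra1 A_44_P1160578, at 0.00, turned to −0.0059 with quantile scaling, −0.016 with slide as a block, −0.028 with array weights, −0.027 in the authors' table, −0.15 as the mean of the gene's probes and −0.030 within slide 1. Without OV replicate 3 it was −0.067 with slide as a block, −0.059 in the authors' table and −0.037 with array weights, and it ranged from −0.059 to 0.052 with each array left out. Gdnf A_44_P1102313 was −0.20 after normexp, −0.28 within slide 1 and −0.075 to 0.19 with each array left out, and Ntf3 was −0.15 after normexp. Ntrk2 A_42_P538400 was −0.066 with array weights, −0.036 with these and without OV replicate 3, and −0.035 to 0.043 with each array left out. Ntrk2 A_43_P15837 was −0.049 with slide as a block, −0.18 within slide 1 and −0.16 to 0.27 with each array left out. Ntrk2 A_44_P1114028 was 0.28 with array weights, without OV replicate 3 it was 0.050 with slide as a block, 0.16 in the authors' table and 0.23 with array weights, and it ranged from −0.31 to 0.16 with each array left out. Ntrk3 A_43_P18426 was −0.025 with array weights and −0.012 with these and without OV replicate 3. Sort1 A_43_P10888 was 0.082 within slide 2, without OV replicate 3 it was 0.071 with slide as a block, 0.035 in the authors' table and 0.035 in the scanner values, and it ranged from −0.33 to 0.035 with each array left out; Sort1 A_44_P822283 was −0.0092 within slide 2. The median of all probes moved to +0.11 with median scaling, −0.11 after normexp and −0.13 with no filter. Dim probes, Bdnf and Ntf3 on OV replicate 3 among them, lie near background there.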

Other observations

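Probes of a single related gene did not always agree in direction, with all 9 arrays. Creb1 had 4 tested probes with differences from −0.48 to +0.17, Mef2c 2 from −0.18 to +0.69, and Pcsk1 2 from −1.06 to +0.26. The 3 probes of Homer1, a scaffold gene of the synapse induced by BDNF, ranged from −0.04 to +0.86. The gene values given above are those of the brightest probe.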
